A study of Caenorhabditis elegans with 12 samples.

Results

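The genes described here carry the symbols of enzyme families that activate fatty acids or shorten them by beta-oxidation. Some of them have other roles, as given below. They were chosen by symbol, with earlier results of these data known. The rule takes every row of the count table whose sequence name maps to certain symbols in the WBcel235 annotation of Caenorhabditis elegans. These symbols start with acs-, acdh-, acox-, ech-, hacd-, cpt- or kat- and a number. The table has 27928 rows, and 60 of them carry such a symbol. The 8 of these on chromosome III (acs-4, acs-5, acs-19, acdh-6, acdh-11, acox-1.5, cpt-3 and ech-6) are listed at 0 in all libraries, like the rest of that chromosome, and are not analysed here. The other 52 genes all had counts, 19 with the symbol acs, 5 cpt, 11 acdh, 6 acox, 9 ech, 1 hacd and 1 kat, and all 52 passed the filter on low counts. They lie on chromosomes I (13), II (11), IV (9), V (13) and X (6).

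The 12 libraries come from pools of whole worms of the wild-type strain N2, of which 6 received the vehicle dimethyl sulfoxide (DMSO) and 6 vitamin D, for 44 h on NGM agar at 20 °C. The form of vitamin D is not stated in the labels, which give its dose as 100 µM in the series text and 100 mM in the treatment protocol, a pool as 50 or 40 worms, and treatment as starting either at L4, the last larval stage, or when the worms were 1 day of age. Libraries held 30203731 to 35230983 counts on vehicle and 31383203 to 38720736 on vitamin D. The least counted member, acs-24, had 725 counts over the 12 libraries, the most counted, acdh-1, 1801495, and 47 of the 52 had at least 100 counts in every library. Vehicle libraries 2 and 3 and vitamin D library 5 stood apart from the others of their groups, as given below with the values without them. Because whole worms were used, fewer cells of a tissue and less RNA per cell cannot be told apart in any value below.

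A fatty acid is first joined to coenzyme A by an acyl-CoA synthetase (acs). Long chains then enter mitochondria through carnitine palmitoyltransferases (cpt), or are handled in peroxisomes. Each turn of beta-oxidation has 4 steps: an acyl-CoA dehydrogenase (acdh) in mitochondria or an acyl-CoA oxidase (acox) in peroxisomes makes a double bond, an enoyl-CoA hydratase (ech) adds water, a hydroxyacyl-CoA dehydrogenase (hacd) oxidises the product, and a thiolase (kat) releases acetyl-CoA. In the worm the intestine is a main site of fat storage and breakdown, and the peroxisomal branch also trims the side chains of the ascaroside pheromones.

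Transcripts of ech-9 rose more than 4-fold with vitamin D, acs-17 rose slightly, and the peroxisomal oxidase genes acox-3 and acox-1.6 fell. The other 48 members did not pass the threshold, an adjusted p under 0.05 in edgeR's quasi-likelihood test with Benjamini-Hochberg adjustment over all 13460 tested genes. Thus 4 of 52 members, 7.69%, were called, against 3.66% of all tested genes. The 2 higher members stand against 1.75% of all tested genes called higher, and the 2 lower ones against 1.90% called lower. With 4 calls the difference between these shares rests on 1 or 2 genes in each direction and was not tested. Log2 fold changes, vitamin D over vehicle, ran from -0.63 to 2.14 with a median of -0.05, where all tested genes had a median of -0.0029. They were negative for 32 members and positive for 20, and 36 of the 52 were smaller than 0.25 in either direction. An unadjusted p under 0.05 was found for 11 members (21.2%), 2 higher and 9 lower, against 16.7% of all tested genes. With vehicle libraries 2 and 3 left out, which stand apart as described below, 7 members were higher and 10 lower (32.7%, against 28.6% of all tested genes).

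**Figure D1:**
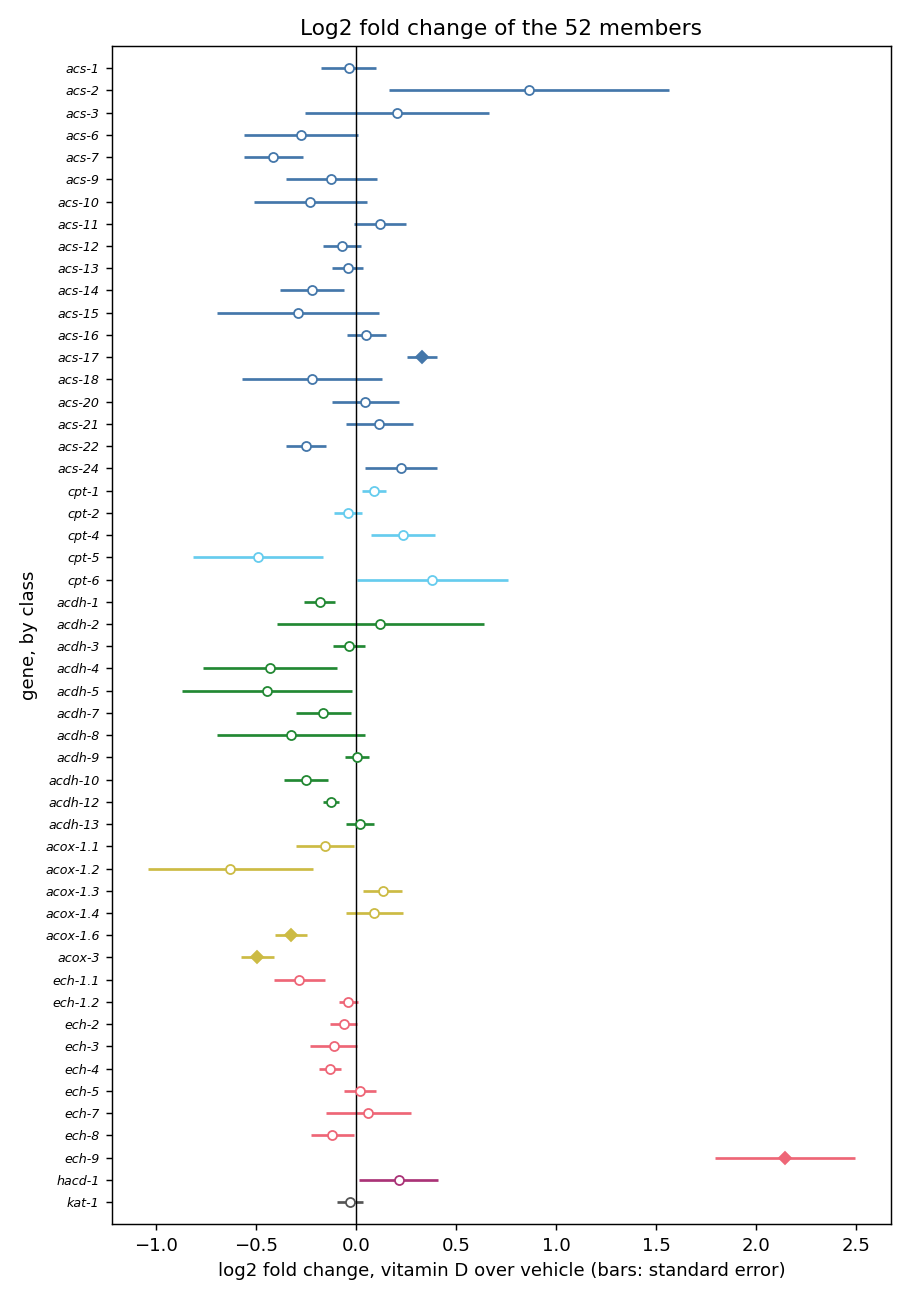
Log2 fold change, vitamin D over vehicle, of each of the 52 members (horizontal axis), grouped and coloured by symbol class, with bars for the standard error of the edgeR fit. Filled diamonds mark the 4 members past the threshold, ech-9 at 2.14, acs-17 at 0.33, acox-1.6 at -0.32 and acox-3 at -0.49. Open circles mark the others.

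The gene ech-9 (F01G10.3), named as an enoyl-CoA hydratase gene, lies on chromosome IV (10233310 to 10235329, minus strand). Its level in CPM, counts per library size with TMM factors applied, was 1.68 at the lowest, 3.24 at the median and 4.70 at the highest of the 6 vehicle libraries, and 6.97, 11.4 and 23.97 in the vitamin D libraries. All 6 vitamin D libraries were above all 6 vehicle libraries, as were those of 1.98% of all tested genes. The mean went from 3.03 ± 1.13 to 13.4 ± 6.50 CPM (SD, n = 6 and 6), a 4.42-fold rise with a log2 fold change of 2.14 (SE 0.35) and an edgeR adjusted p of 0.00572. The vitamin D libraries also differed widely among themselves, with libraries 6 and 1 highest (23.97 and 18.2 CPM) and library 3 lowest. Libraries 2 to 4 had 6.97 to 9.84 CPM and library 5 had 12.9 CPM. The call held in all 21 alternatives, with log2 fold changes from 1.88 to 2.31.

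The next member along the chromosome, ech-8 (F01G10.2; IV, 10236626 to 10239176), is on the same strand 1296 bp away and did not pass the threshold. Its level was 20.9, 24.97 and 32.1 CPM (lowest, median, highest) on vehicle and 22.03, 23.8 and 25.2 CPM on vitamin D, and the groups overlapped (log2 fold change -0.12, SE 0.11, edgeR adjusted p = 0.627). Scaled to exon length, ech-9 stood at 0.110 ± 0.04997 of ech-8 on vehicle and at 0.494 ± 0.222 on vitamin D (SD, n = 6 and 6). The ratio ran from 0.0499 to 0.175 on vehicle and from 0.247 to 0.835 on vitamin D, a mean difference of 2.21 on the log2 scale. Since ech-8 varied little, the ratio restates the rise of ech-9 and is no separate evidence of it. The sources used here do not give how reads that fit both genes were assigned, so their separate levels carry that uncertainty.

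Both oxidase genes that fell act, as acyl-CoA oxidases, at the first step of peroxisomal beta-oxidation. For acox-3 (F58F9.7; IV, 6245358 to 6248492) the vehicle libraries had 61.0, 67.8 and 79.4 CPM (lowest, median, highest) and the vitamin D libraries 42.1, 51.1 and 52.4 CPM. Every vitamin D library was below every vehicle library, as for 1.92% of all tested genes. The mean fell from 69.4 ± 7.5 to 49.3 ± 4.15 CPM (SD, n = 6 and 6), by 0.49 in log2 units (SE 0.08), with an edgeR adjusted p of 0.00590, and the call held in all 21 alternatives. For acox-1.6 (F59F4.1; X, 15834072 to 15838546) the values were 44.2, 50.9 and 54.2 CPM on vehicle and 33.6, 39.8 and 46.4 CPM on vitamin D. There 5 of the 6 vitamin D libraries were below all vehicle libraries, and vitamin D library 2 lay inside their range. The mean fell by 0.32 in log2 units (SE 0.08). Its edgeR adjusted p of 0.0463 was close to the threshold, and the call was lost in 13 of 21 alternatives, with adjusted p-values up to 0.175 but the direction kept. The summed level of the 9 intestine markers was 6176 to 7753 CPM on vehicle. Vitamin D libraries 2 to 4 were below that range, with 5446 to 5992 CPM. Libraries 1 and 6 were inside it (6465 and 6355 CPM), and library 5 was above it (11379 CPM). Both oxidase genes had their lowest levels in vitamin D library 5, which stood apart as described below. The part of intestine RNA in these falls was not tested.

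The gene acs-17 (C46F4.2; X, 5937506 to 5944510), a predicted long-chain acyl-CoA synthetase gene, had 43.7, 47.1 and 52.7 CPM (lowest, median, highest) on vehicle and 50.4, 59.2 and 68.7 CPM on vitamin D. Of the vitamin D libraries 5 were above all vehicle libraries, and library 5 was inside their range. The rise was 1.26-fold, a log2 fold change of 0.33 (SE 0.07), with an edgeR adjusted p of 0.0299. Over 21 alternatives the log2 fold change stayed between 0.25 and 0.39, and the call was lost in 12 of them, among them the removal of the trend on exon length (0.25, adjusted p = 0.157). Its 2892 bp of exon make it the longest member. An opposite-strand gene, C46F4.3, overlaps it with 604 counts over the 12 libraries, against 22205 for acs-17.

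**Figure D2:**
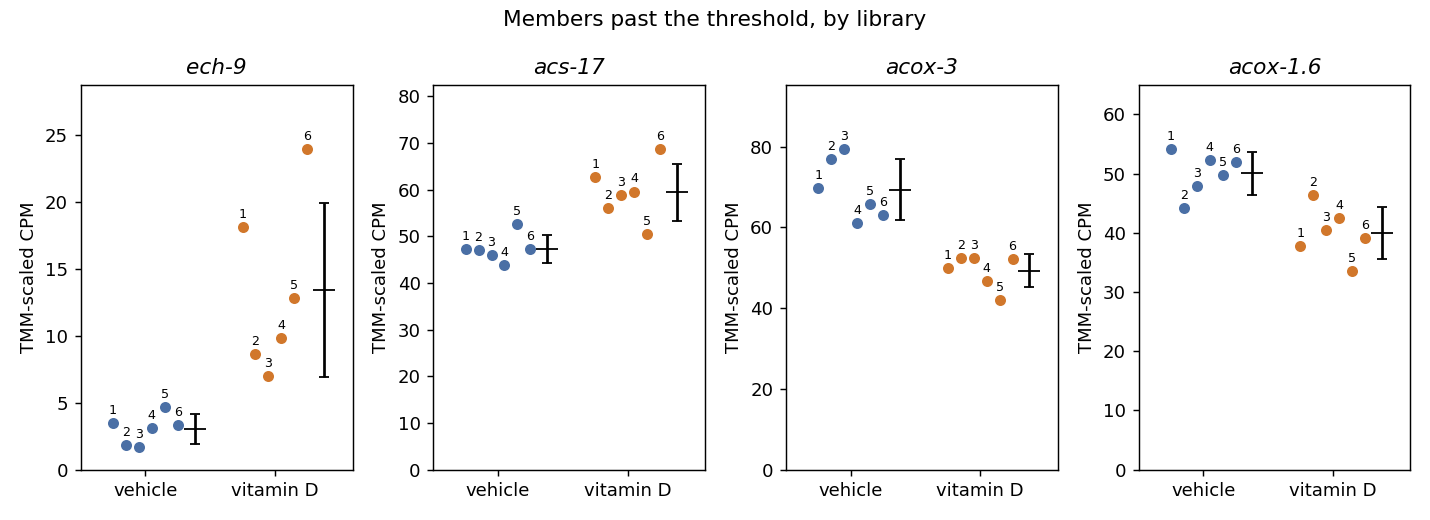
TMM-scaled CPM of the 4 called members in each library (points, numbered by replicate; blue vehicle, orange vitamin D), with the mean and SD of 6 libraries as a bar. For ech-9 and acox-3 the groups are separate, while vitamin D library 5 of acs-17 (50.4 CPM) and vitamin D library 2 of acox-1.6 (46.4 CPM) lie inside the vehicle range.

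Apart from ech-9 and acox-3, the groups were separate for 1 further member, acdh-12 (E04F6.5; II, 7192429 to 7195641), which encodes the worm's very-long-chain acyl-CoA dehydrogenase. Its libraries lay between 254 and 277 CPM on vehicle and between 235.4 and 253 CPM on vitamin D. The difference was small (-0.12 on the log2 scale, SE 0.04) and did not pass the threshold (edgeR adjusted p = 0.120). It passed in 3 of 21 alternatives: with DESeq2 (adjusted p = 0.0114), with the sperm gene level as a covariate (0.0198) and with the length trend removed (0.0325). In the other 18 it did not pass, with edgeR adjusted p-values up to 0.366. In all, 3 members had groups without overlap, ech-9 higher and acox-3 and acdh-12 lower, against 3.90% of all tested genes.

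Levels per kilobase of exon, which can be compared between genes, covered more than 3 orders of magnitude. The highest was that of acdh-1 (C55B7.4; chromosome I), an acyl-CoA dehydrogenase of the shunt that breaks down propionate when vitamin B12 is scarce. It had a mean of 2615 CPM per kb over the 12 libraries, rank 50 among all tested genes. The thiolase gene kat-1 was next with 228 CPM per kb, followed by ech-1.2, which encodes a subunit of the mitochondrial trifunctional protein, with 188 CPM per kb. The leading synthetase gene, acs-1, which serves branched-chain fatty acids, had 151 CPM per kb, and the leading transferase gene, cpt-2, 117 CPM per kb. The oxidase genes were lower, led by acox-1.2 with 61.8 CPM per kb. At the other end stood acs-2, acs-9 and acs-24 with 3.39, 1.77 and 0.902 CPM per kb. The called genes were not among the most abundant: acox-3 had 28.8, acox-1.6 21.7, acs-17 18.4 and ech-9 4.98 CPM per kb.

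**Figure D3:**
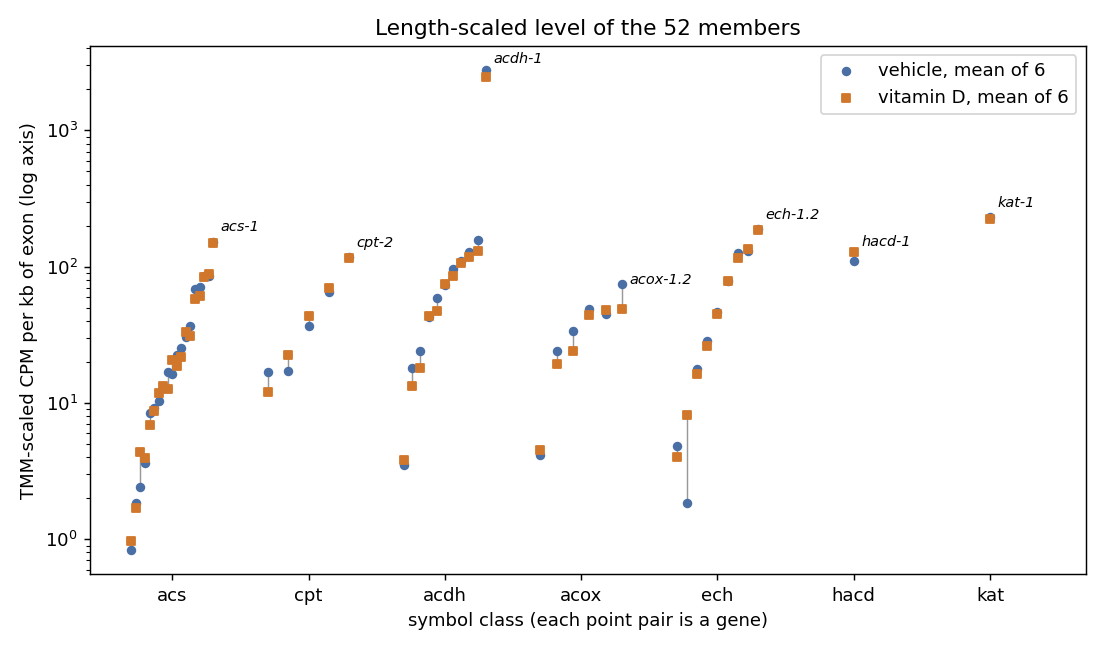
Mean level of each member in CPM per kb of exon (log axis) by symbol class, vehicle in blue circles and vitamin D in orange squares, with a line joining both values of a gene. The gene with the highest level of each class is named. The widest gap between both values is that of ech-9, and acdh-1 lies far above the other members.

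Of the genes of the core mitochondrial steps, cpt-1, cpt-2, ech-1.2 and kat-1 had log2 fold changes of at most 0.09 in either direction, while acdh-12 (above), acdh-10 and hacd-1 differed more or varied more. At the entry of long chains, cpt-1 had 183 ± 13.5 CPM on vehicle and 195 ± 10.4 on vitamin D (SD, n = 6 and 6; log2 fold change 0.09, SE 0.06), and cpt-2 had 253 ± 28.4 and 246 ± 9.07 (-0.04, SE 0.07). The medium-chain dehydrogenase gene acdh-10 had 217 ± 39.5 and 182 ± 15.7 CPM (-0.25, SE 0.11, edgeR adjusted p = 0.273), and it was called lower with the sperm gene level as a covariate (-0.28, adjusted p = 0.00168). At the hydration step ech-1.2 had 507 ± 24.5 and 493.4 ± 21.6 CPM (-0.04, SE 0.05), and at the last step kat-1 had 306 ± 29.9 and 300 ± 13.1 CPM (-0.03, SE 0.06). The standard errors of cpt-1, cpt-2, ech-1.2 and kat-1 are thus small beside the fall of 0.49 of acox-3. The least settled of these genes was hacd-1, the member with the symbol hacd. Its vehicle libraries ran from 81.2 to 170 CPM and its vitamin D libraries from 98.7 to 145 CPM (0.21, SE 0.20, edgeR adjusted p = 0.639). It was called higher with the sperm gene level as a covariate (0.19, edgeR adjusted p = 0.0420) and without vehicle libraries 2 and 3 (0.58, edgeR adjusted p = 0.00282). Of the 21 alternatives, 18 did not call it.

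The synthetase genes with a role outside beta-oxidation did not pass either with all 12 libraries and no covariate. The genes acs-20 and acs-22 encode relatives of the fatty acid transport proteins that are needed for the barrier of the worm's cuticle. They had log2 fold changes of 0.05 (SE 0.17) and -0.25 (SE 0.10, edgeR adjusted p = 0.222). Levels of acs-22 were 168 ± 22.7 CPM on vehicle and 141 ± 15.9 on vitamin D (SD, n = 6 and 6), with 2 vitamin D libraries below all vehicle libraries. For acs-1 the values were 368 ± 67.0 and 358 ± 57.8 CPM (-0.04, SE 0.14). Its log2 fold change changed sign in 6 of 21 alternatives. It was called higher without vehicle libraries 2 and 3 and vitamin D library 5 (0.22, edgeR adjusted p = 0.0153).

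The oxidase genes acox-1.1 to acox-1.4 lie head to tail on chromosome I, between 12938555 and 12954003, with 34 to 343 bp between neighbours, and none of them passed the threshold. Mean levels on vehicle were 124 CPM for acox-1.1, the oxidase best known for shortening ascaroside side chains, 155 for acox-1.2, 8.68 for acox-1.3 and 93.7 for acox-1.4. Their log2 fold changes were -0.16 (SE 0.14), -0.63 (SE 0.41), 0.13 (SE 0.10) and 0.09 (SE 0.14). The similarity of these genes and the handling of reads that fit more than 1 of them were not measured. The acox-1.2 value rests on single libraries: vehicle libraries 2 and 3 had 273 and 296 CPM and the other vehicle libraries 75.1 to 118, while vitamin D library 5 had 38.4 CPM and the other vitamin D libraries 86.5 to 137. Without vehicle libraries 2 and 3 its log2 fold change turned to 0.16.

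Vehicle libraries 2 and 3 stood apart for most members. Both lay above all of the other 4 vehicle libraries for 30 members and below all of them for 14, in all 44 of 52 (84.6%), against 63.5% of all tested genes. Sperm genes had a low level in the same libraries: the summed level of 60 genes with the symbols msp and spe, of which 54 were tested and 6 listed at 0, was 1090 and 917 CPM in vehicle libraries 2 and 3, 4543 to 6320 CPM in the other vehicle libraries and 2017 to 4217 CPM in the vitamin D libraries. None of the 54 passed the threshold. The summed level of 8 oocyte markers was also low there, with 349 and 305 CPM against 895 to 1079 CPM in the other vehicle libraries, and lay between 337 and 502 CPM in the vitamin D libraries other than library 5. Summed hypodermis markers were highest there, with 1728 and 1631 CPM against 890 to 1275 CPM in the other vehicle libraries. The genes in the next paragraph, other than hacd-1 and acox-1.2, were named after their values were seen.

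The members low in vehicle libraries 2 and 3 were led by the dehydrogenase genes acdh-5, acdh-8 and acdh-4 and the synthetase genes acs-15, acs-18, acs-6 and acs-10. For acdh-5 those libraries had 8.01 and 5.67 CPM, the other vehicle libraries 28.6 to 40.0 CPM and the vitamin D libraries 15.5 to 23.2 CPM. For acdh-8 the values were 27.1 and 26.4 CPM, 93.1 to 121 CPM and 51.8 to 91.3 CPM. In both genes all vitamin D libraries thus lay between vehicle libraries 2 and 3 and the other vehicle libraries. The members high in vehicle libraries 2 and 3 were led by acs-3, acox-1.2, cpt-6, cpt-5, ech-7 and hacd-1. For acs-3, which acts on fat uptake together with the nuclear receptor gene nhr-25, they had 40.5 and 46.2 CPM, the other vehicle libraries 7.36 to 16.9 CPM and the vitamin D libraries 18.8 to 33.9 CPM. For hacd-1 they had 170 and 156 CPM, the other vehicle libraries 81.2 to 96.1 CPM and the vitamin D libraries 98.7 to 145 CPM.

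Without vehicle libraries 2 and 3 most of these members were called, but not acox-1.2 and cpt-5. These members lead by the distance of those libraries from the other vehicle libraries, so leaving those libraries out favours a call. Such calls are no separate evidence of a change with vitamin D. Lower were acdh-5 (-0.89), acdh-4 (-0.81), acdh-8 (-0.73), acs-15 (-0.71), acs-6 (-0.62), acs-18 (-0.62), acs-10 (-0.57) and ech-1.1 (-0.41), next to acox-3 (-0.39) and acox-1.6 (-0.37). Higher were acs-3 (1.23), cpt-6 (1.15), hacd-1 (0.58), ech-7 (0.45) and acs-11 (0.34), next to ech-9 (1.88) and acs-17 (0.32). In that comparison all vitamin D libraries have less sperm gene RNA than all remaining vehicle libraries, and, apart from library 5, less oocyte marker RNA; the part of either in the result was not tested there. With the sperm gene level as a covariate over all 12 libraries, 3 members were higher and 9 lower (23.1%, against 12.6% of all tested genes). Those were ech-9, acs-17 and hacd-1 (0.19, edgeR adjusted p = 0.0420) among the higher and acox-3, acox-1.6, cpt-5, acs-7, acdh-10, acs-22, acdh-7, ech-4 and acdh-12 among the lower. The 7 genes of the acdh-5 group did not pass in that fit. Thus ech-9, acs-17, acox-3 and acox-1.6, called with all 12 libraries and no covariate, were also called in both of these fits. So was hacd-1, which was not called with all 12 libraries and no covariate. Of the 21 alternatives, 18 did not call hacd-1. Both fits draw on the same libraries, so their overlap is no separate evidence.

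**Figure D4:**
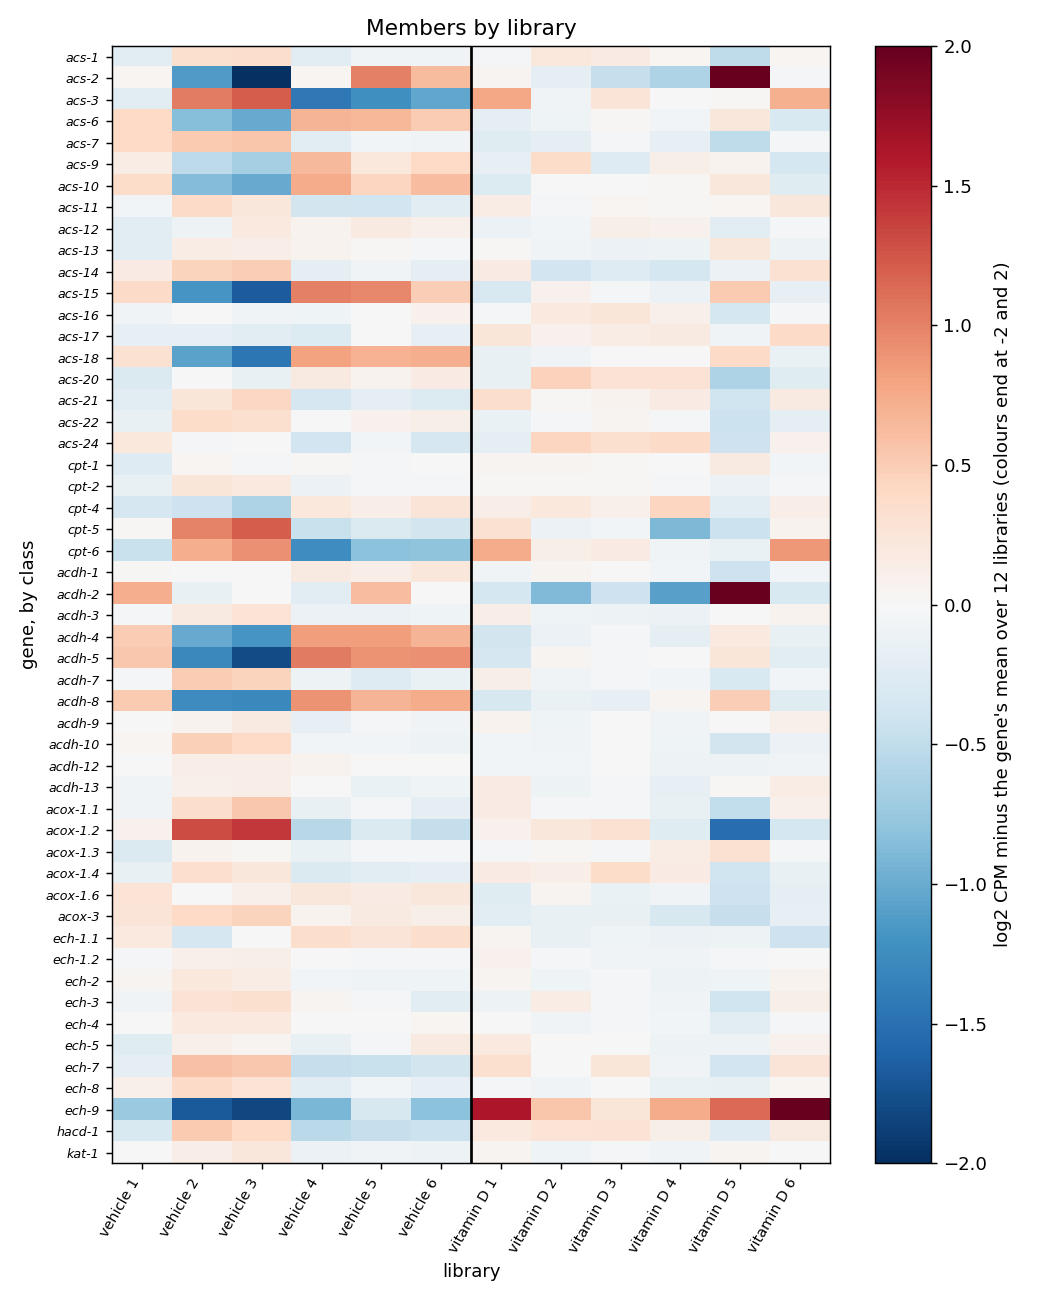
Log2 CPM of each member minus its mean over the 12 libraries, by library (columns) and gene (rows, by class); red is above and blue below the gene's mean, and the colour scale is the same for all genes. Vehicle libraries 2 and 3 share a pattern that the other vehicle libraries lack, with low acdh-4, acdh-5, acdh-8, acs-15 and acs-18 and high acs-3, acox-1.2 and cpt-6, and ech-9 is high in the vitamin D libraries.

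Vitamin D library 5 stood apart in a second way. It was the highest or lowest of the vitamin D libraries for 38 of the 52 members (73.1%, against 59.6% of all tested genes). The gene acs-2, a mitochondrial synthetase gene that is induced by fasting through the nuclear receptor NHR-49, had 34.3 CPM in that library and 3.10 to 4.97 CPM in the other vitamin D libraries, with 1.07 to 9.59 CPM on vehicle. The dehydrogenase gene acdh-2 had 23.7 CPM there, 2.66 to 4.57 CPM in the other vitamin D libraries and 4.83 to 9.32 CPM on vehicle, so that 5 vitamin D libraries were below all vehicle libraries and 1 was above them. These 2 were the members at 3 or more times the median of the other vitamin D libraries, as were 328 of all tested genes (2.44%). Neither passed the threshold, at log2 fold changes of 0.87 (SE 0.70) and 0.12 (SE 0.52), and the value of acs-2 was -0.30 without vitamin D library 5. Without vehicle libraries 2 and 3 and vitamin D library 5, acs-2 (-0.72, edgeR adjusted p = 0.0262) and acdh-2 (-0.91, 0.0107) were called lower, among 10 higher and 13 lower members (44.2%, against 40.9% of all tested genes). With all 12 libraries, levels of nhr-49 were 109 ± 14.3 CPM on vehicle and 110 ± 3.37 on vitamin D (SD, n = 6 and 6; 0.02, SE 0.08). It was called higher in 2 of 21 alternatives, without vehicle libraries 2 and 3 and then also without vitamin D library 5. Over the alternatives its log2 fold change reached 0.15 and its lowest edgeR adjusted p was 0.0237.

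The most abundant member, acdh-1, was lowest in the same library, with 3259 CPM against 4164 to 4511 CPM in the other vitamin D libraries and 4330 to 5115 CPM on vehicle. Of the vitamin D libraries 5 were below all vehicle libraries, and the log2 fold change of -0.18 (SE 0.08) did not pass (edgeR adjusted p = 0.256). In 1 of 21 alternatives acdh-1 was called lower, without vehicle libraries 2 and 3 and vitamin D library 5 (-0.17, edgeR adjusted p = 0.0196). Vitamin D library 5 also had the highest summed level of the 9 intestine markers, 11379 CPM as given above, and of the 8 oocyte markers, 1577 CPM against 337 to 502 CPM in the other vitamin D libraries and 305 to 1079 CPM on vehicle. Of these, 8 and 7 were tested, 1 of each list was listed at 0 (act-5 and egg-1, on chromosome III), and none passed the threshold. Their part in the values of that library was not tested.

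**Figure D5:**
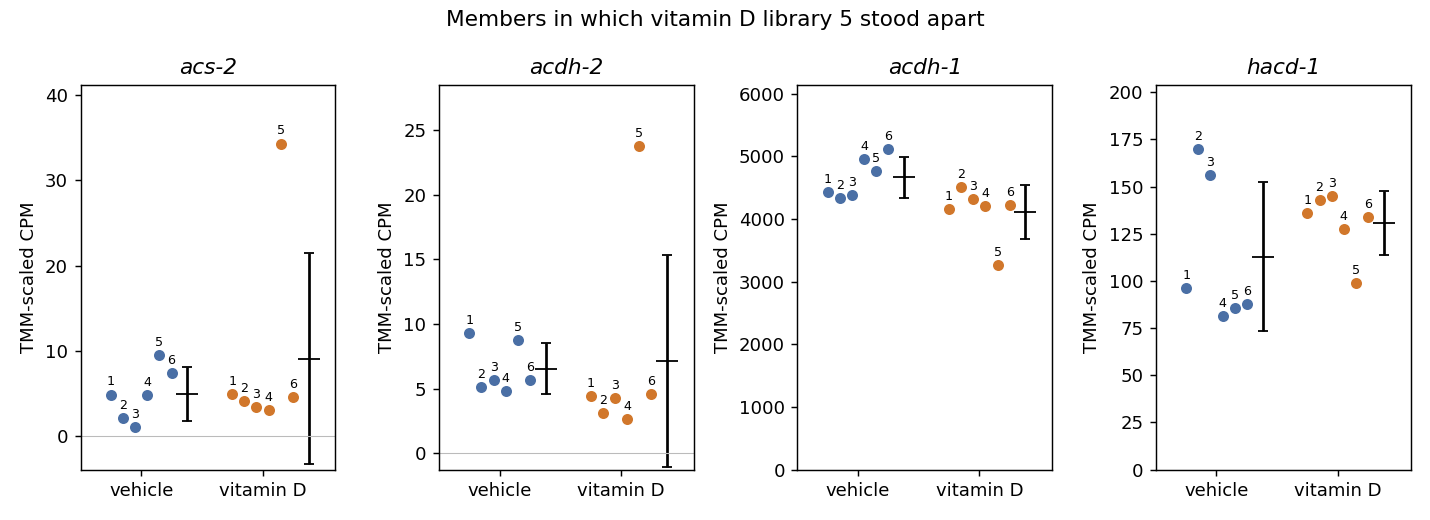
TMM-scaled CPM of acs-2, acdh-2, acdh-1 and hacd-1 in each library (points, numbered by replicate; blue vehicle, orange vitamin D), with the mean and SD of 6 libraries as a bar. Vitamin D library 5 is far above the others for acs-2 (34.3 CPM) and acdh-2 (23.7 CPM) and lowest of its group for acdh-1 (3259 CPM) and hacd-1 (98.7 CPM).

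The partners of these enzymes in fatty acid metabolism did not pass the threshold, in 7 lists with 63 tested genes. Among 18 peroxisomal partners and assembly genes none passed, 13 were negative and 5 positive, and the median log2 fold change was -0.13. The peroxisomal steps after the oxidases are carried by maoc-1, a hydratase, dhs-28, a dehydrogenase, and daf-22, a thiolase. They had -0.28 (SE 0.21), -0.25 (SE 0.10) and -0.21 (SE 0.08), with edgeR adjusted p-values of 0.560, 0.207 and 0.156. Of daf-22 the level was 165 ± 9.61 CPM on vehicle and 143 ± 15.8 on vitamin D (SD, n = 6 and 6). With the sperm gene level as a covariate 6 genes of this list were lower and 0 higher, where 799 of all 13460 tested genes were lower and 896 higher. Among the 6 were maoc-1, dhs-28 and daf-22 (edgeR adjusted p = 0.0268, 0.00867 and 0.0275).

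Of 3 carnitine partners (median -0.03), with the mitochondrial carnitine carrier gene dif-1 (-0.20, SE 0.08), and of 7 propionate genes (median -0.07) none passed. The propionate shunt genes alh-8 and hphd-1, which act after acdh-1, had -0.06 (SE 0.10) and -0.14 (SE 0.06), and nhr-68, a receptor gene that switches the shunt on, had -0.09 (SE 0.06). Both dif-1 and hphd-1 were called lower with the sperm gene level as a covariate (edgeR adjusted p = 0.0167 and 0.0126). Of 7 regulators, 10 lipase and storage genes, 16 genes of synthesis, elongation and desaturation, and icl-1 and mdh-1 of the glyoxylate and citric acid cycles, none passed either. Their medians were 0.02, 0.12, 0.03 and -0.19. A further 16 listed genes, among them mdt-15 and sbp-1, lie on chromosome III and are not analysed here.

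Markers of the other tissues were measured in all libraries. Summed levels ran from 8033 to 9720 CPM for 5 body wall muscle genes, 890 to 1728 CPM for 6 hypodermis genes with bli-1 at 0, 349 to 463 CPM for 6 neuron genes and 158 to 262 CPM for 4 pharynx genes. Of these, 1 muscle gene passed the threshold, upward. The 5 embryo genes were near 0, with 0.437 to 1.48 CPM, and none of them was tested.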

How the data were processed

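RNA-seq read counts per gene, 1 column for each of the 12 pools, were used as deposited by the authors. The sources used here do not give the aligner, counter, genome build, library strand or handling of shared reads, and the submitters' processing notes name edgeR 3.12.1 without a role. A deposited table of CPM values by the authors equals each count over its library total and was used only for that check. The labels number the libraries of both groups alike and do not say whether equal numbers form pairs. Same-number correlations of deviations ran from -0.418 to 0.441. They cannot exclude a pairing, since vitamin D library 5 was the best match of most vehicle libraries whatever their number.

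Sequence names were matched to the WBcel235 annotation. Of 27928 names 27187 matched 1 gene, 3 several and 738 none. All 2800 rows of chromosome III hold 0 and were not analysed. Counts were tested with edgeR 4.0.16 in R 4.3.3 (TMM factors, filterByExpr minima of 10 counts and 15 in total, robust quasi-likelihood fit, all 12 libraries, no covariate), with Benjamini-Hochberg adjustment over 13460 genes and a threshold of 0.05. The common biological coefficient of variation was 0.313, and the scripts were tested on simulated data. Levels are TMM-scaled CPM, divided by the length of merged exons where genes are compared. Alternatives were DESeq2 1.42.0, RLE factors, library totals, no filter, a replicate block, the sperm gene level as a covariate, removal of a trend on exon length, each library left out, and vehicle libraries 2 and 3 left out together. The length trend was a loess fit, in each library, of log2 CPM minus the gene's mean over the 12 libraries on log2 exon length. Leaving out vitamin D library 5 as well was added after seeing the data.

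No 2 libraries of a group held the same values: chi-square per degree of freedom was 7.354 for the closest pair. The labels do not say whether pools came from separate cultures, so p-values measure the spread between these samples. The members and the gene lists were chosen with earlier results of these data known. Genes named were the members past the threshold, the member with the highest level per kilobase in each symbol class, and members and partners with a known role; others are marked in the text or belong to counts.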

Additional observations from a re-analysis of the deposited data

Results flagged for a closer look

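In 7 of the 104 groups formed by 52 members and 2 treatments (6.73%), the highest or lowest of the 6 libraries lay farther from its neighbour than Dixon's 95% limit, where chance gives about 1 in 20. In 6 of the 7 that library was vitamin D library 5. It was highest for acs-2, with 34.3 CPM against 3.10 to 4.97 CPM in the other vitamin D libraries, for acdh-2, with 23.7 CPM against 2.66 to 4.57 CPM, and for acs-18, with 61.8 CPM against 43.0 to 47.6 CPM. It was lowest for acdh-1, with 3259 CPM against 4164 to 4511 CPM, for acdh-10, with 152.0 CPM against 181 to 198 CPM, and for hacd-1, with 98.7 CPM against 128 to 145 CPM. The remaining library was vehicle library 1 for cpt-1, with 157.1 CPM against 183 to 193 CPM in the other vehicle libraries.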

How the results depend on the processing

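Over 27 named genes and 21 alternatives, 486 of 567 log2 fold changes kept their direction and side of the threshold, 25 lost the call, 16 gained one and 40 changed sign. The calls of ech-9 and acox-3 held throughout. That of acs-17 was lost without each library in turn except vehicle 5 and vitamin D 5, and that of acox-1.6 except vehicle 2 and vitamin D 2. The cause of these changes was not tested.

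Members called higher and lower, 2 and 2 as reported, were 2 and 1 with library totals or no low-count filter, 1 and 1 with the replicate block, 1 and 3 with the length trend removed, 3 and 9 with the sperm covariate, 7 and 10 without vehicle libraries 2 and 3, and 10 and 13 also without vitamin D library 5. They ranged from 1 to 2 in each direction with 1 library left out. Whether the replicate numbers pair the libraries was not settled. With the replicate block ech-9 and acox-3 kept their calls, and acs-17 and acox-1.6 lost theirs.

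Over all tested genes, 236 higher and 256 lower, the counts were 544 and 603 with DESeq2, 507 and 223 with library totals, 195 and 175 with no filter, 104 and 32 with the replicate block, 896 and 799 with the sperm covariate, 188 and 65 with the length trend removed, 2036 and 1888 without vehicle libraries 2 and 3, and 2583 and 2996 also without vitamin D library 5. With 1 library left out they ranged from 146 to 308 and from 109 to 317.

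In the partner lists, 0 and 0 as reported, 1 peroxisomal gene was lower with DESeq2 and 0 to 1 with 1 library left out. With the sperm covariate, lower were 6 peroxisomal, 1 carnitine, 1 propionate, 2 lipase and 1 glyoxylate list genes, and higher 2 synthesis genes. Without vehicle libraries 2 and 3, lower were 1 peroxisomal and 1 glyoxylate gene, and higher 2 propionate, 2 regulator, 4 lipase and 5 synthesis genes. Also without vitamin D library 5, lower were 3 peroxisomal, 1 lipase and 1 glyoxylate gene, and higher 1 peroxisomal, 1 carnitine, 3 propionate, 4 regulator, 5 lipase and 7 synthesis genes.

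Log2 fold changes that changed sign without vehicle libraries 2 and 3, and then also without vitamin D library 5, were those of acs-1 (0.15, 0.22), cpt-2 (0.071, 0.076), acox-1.1 (0.064, 0.12), acox-1.2 (0.16, 0.31), ech-1.2 (0.014, 0.0040), ech-8 (0.039, 0.046), kat-1 (0.066, 0.040), maoc-1 (0.094, 0.13) and alh-8 (0.12, 0.12), and acs-2 in the latter (-0.72). Library totals gave 0.026 for acs-1, 0.021 for cpt-2, 0.022 for ech-1.2, 0.034 for kat-1 and 0.0024 for alh-8. With the length trend removed acs-20 had -0.021 and nhr-49 -0.036, and with the sperm covariate nhr-49 had -0.0038. With 1 library left out, log2 fold changes that changed sign in some of these fits ranged from -0.088 to 0.051 for acs-1, from -0.30 to 1.16 for acs-2, from -0.054 to 0.15 for acs-20, from -0.060 to 0.0096 for kat-1 and from -0.021 to 0.065 for nhr-49.

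Every member had 725 counts or more over the 12 libraries. The members' median coefficient of variation between libraries was 18.2% on vehicle and 12.8% on vitamin D, against 20.1% and 15.2% for all tested genes. How much of it is counting error was not tested.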
